A study of Rattus norvegicus with 16 samples.

Results

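The levels of 10 genes of endoplasmic reticulum (ER) protein folding and of the unfolded protein response were followed in single cells of the rat intervertebral disc (IVD). The genes were taken by name: Hspa5, Hsp90b1, Pdia3, Pdia4, Pdia6, Calr, Canx, Xbp1, Ddit3 and Creld2. All 10 are among the 14930 genes with a value in any group, and each had a value in all 16 libraries. Discs came from 8 male Sprague-Dawley rats that were 8 weeks old at surgery. In every rat the L4-5 and L5-6 discs received a single stab with a 27G needle (LDP, lumbar disc puncture), and the unpunctured L2-3 and L3-4 discs of the same spine served as control (CON). Puncture and spinal level thus differ together in every rat and cannot be told apart. The 2 discs of a kind were pooled into 1 library per rat, from rats 1 to 4 at 2 weeks and rats 5 to 8 at 8 weeks, so each of the 4 groups holds 4 libraries and CON and LDP are paired by animal. The control discs lie in an operated animal beside the injured levels, and all cells of both kinds went through collagenase and pronase digestion before capture.

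Most secreted and membrane proteins fold in the ER, where chaperones hold unfinished chains, lectin chaperones retain glycoproteins, and disulfide isomerases join cysteines. When unfolded chains build up, the sensors ATF6, IRE1 and PERK start the unfolded protein response, which raises chaperone transcription, splices the Xbp1 message and, through ATF4, induces Ddit3. Disc cells secrete a collagen and proteoglycan matrix, so this machinery is part of their ordinary work. Hspa5 encodes BiP, the main chaperone of the ER lumen, which also holds the sensors inactive, and Hsp90b1 encodes a second abundant chaperone of the lumen with a narrower set of clients. Calr and Canx encode calreticulin and calnexin, the soluble and the membrane-bound lectin chaperone, and Pdia3 encodes the disulfide isomerase that works with them. Pdia4 and Pdia6 encode further disulfide isomerases, and Creld2 encodes an ER protein induced by ER stress. Xbp1 and Ddit3 encode transcription factors, the latter known as CHOP. The libraries count 3′ ends of messages, so the spliced form of Xbp1 could not be told from the unspliced form.

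Promoter sequences in RefSeq (build GRCr8) were matched by symbol for 8 of the 10 genes (not for Pdia3 and Pdia6), and the 250 bases before the annotated gene start were searched on both strands. The ER stress response element, CCAAT and CCACG with 9 bases between them, which ATF6 and NF-Y are known to bind together, was found in 6 of the 8 promoters. It stood in 21 of all 27457 promoter windows (0.0765%). The 4 windows below are shown because the comparisons that follow turn on these genes: 3 hold the element, and that of Ddit3 holds none. Capitals mark the element, which reads CGTGG, 9 bases and ATTGG where it lies on the other strand.
Hspa5 (chr3:38452766-38453015, plus strand): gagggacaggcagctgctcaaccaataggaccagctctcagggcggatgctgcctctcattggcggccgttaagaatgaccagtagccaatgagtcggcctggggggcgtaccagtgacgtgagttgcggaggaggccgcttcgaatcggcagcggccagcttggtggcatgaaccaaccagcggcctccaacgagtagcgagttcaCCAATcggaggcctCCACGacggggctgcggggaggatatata
Hsp90b1 (chr7:23012294-23012543, minus strand): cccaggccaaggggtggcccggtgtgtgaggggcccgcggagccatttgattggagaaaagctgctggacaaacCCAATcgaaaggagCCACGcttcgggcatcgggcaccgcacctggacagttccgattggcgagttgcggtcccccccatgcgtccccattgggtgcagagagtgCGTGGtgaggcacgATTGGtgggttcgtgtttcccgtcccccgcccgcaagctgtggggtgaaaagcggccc
Xbp1 (chr14:84604373-84604622, plus strand): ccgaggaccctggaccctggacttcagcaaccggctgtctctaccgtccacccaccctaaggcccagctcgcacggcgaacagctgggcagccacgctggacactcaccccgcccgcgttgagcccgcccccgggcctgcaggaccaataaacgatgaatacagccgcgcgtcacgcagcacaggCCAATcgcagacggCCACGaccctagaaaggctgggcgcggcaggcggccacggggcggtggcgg
Ddit3 (chr7:65001445-65001694, plus strand): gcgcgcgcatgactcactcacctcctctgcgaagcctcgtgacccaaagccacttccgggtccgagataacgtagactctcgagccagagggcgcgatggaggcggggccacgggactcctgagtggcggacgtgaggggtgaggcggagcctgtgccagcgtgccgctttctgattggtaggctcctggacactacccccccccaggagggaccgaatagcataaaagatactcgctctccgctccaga

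In Hspa5 the element ended 25 bases and in Xbp1 47 bases before the gene start, counted to the base nearest the start. Hsp90b1 held 2 copies, at 158 and 54 bases. The other members with a match are shown by the element alone.
Calr (214 bases before the start): CGTGGtcgaccctgATTGG
Canx (212 bases before the start): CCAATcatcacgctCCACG
Creld2 (127 bases before the start): CGTGGcgagcctcaATTGG
Pdia4 and Ddit3 had no match in this window. None of the 8 windows held ERSE-II (ATTGG, 1 base and CCACG, 0.0437% of all windows), the UPR element TGACGTGG (0.550%), the ATF4 element TTGCATCA (0.656%) or the cyclic AMP response element TGACGTCA (1.70%). Of 117 other ER, stress and matrix genes that were matched, Derl3, Dnajc3 and Ero1b held the first element, and Herpud1 and Hyou1 held ERSE-II. The UPR element stood in 6 of the 117, the ATF4 element in 3 and the cyclic AMP response element in 5. A match is a description of the letters, and occupancy was not measured.

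The 16 libraries held 149272 cells, between 2221 and 15918 each, with 17759809 to 85025591 UMIs per library. Levels are the mean over the cells of a class in a library of CPM, the counts of a gene scaled so that every cell has the same total, taken from the authors' log2(CPM + 1) values. IVD cells, the class named by the authors, summed to 9031 to 28739 CPM for 5 disc marker genes. The study named the class by these genes, so the sum is a description and no check of the label. Endothelial marker genes summed to 66.3 to 363 CPM in IVD cells and 3550 to 6741 CPM in the endothelial class. Any 2 libraries shared between 0 and 75 cell barcodes, at most 0.597% of the smaller one among the 10 pairs that shared most. In 3 libraries IVD cells stood apart from the other 3 libraries of their group. LDP rat 4 had 13.3% and LDP rat 5 had 8.75% of 8355 genes more than 1 log2 unit from the mean of the others. The remaining libraries had 0.72% to 1.58%, apart from CON rat 2 at 2.11%. The third, CON rat 2, was set apart by high stress genes, the members Hspa5, Xbp1 and Ddit3 among them. In its NP cells (below) Egr1, an immediate early gene, stood at 2614 CPM against 77.4 to 110 CPM in the other CON libraries at 2 weeks. This library held 3896 cells, the fewest at 2 weeks, and 60.8% of them were NP cells, against 28.7% to 51.6% in the other CON libraries. The main results that rest on these libraries are given with and without their rats. Fits and correlations without CON rat 2 leave out a library chosen in part by the values of members.

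The first question was whether these genes differed between disc cells of punctured and control discs. At 2 weeks the 10 genes had lower or similar levels in punctured discs. Hspa5, Hsp90b1 and Ddit3 were the 3 with unadjusted p under 0.05, but none passed the test over all genes, and the sizes of these 3 differences rested in large part on CON rat 2 and LDP rat 4. Hspa5 stood at 3616, 7049, 4167 and 3936 CPM in IVD cells of CON rats 1 to 4 and at 3376, 3212, 3613 and 2051 CPM in LDP rats 1 to 4. The groups did not overlap, with the lowest CON library just above the highest LDP library, CON rat 2 far above the others and LDP rat 4 far below. This gave 4692 ± 1587 CPM in CON and 3063 ± 695 CPM in LDP (SD, n = 4). The log2 difference was −0.59 ± 0.19 (SE; limma with rat as block, adjusted p = 0.304).

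Hsp90b1 stood at 1464, 1579, 1785 and 1593 CPM in CON and at 1382, 1322, 1567 and 736 CPM in LDP. LDP rat 4 was the lowest by a wide margin, although the level was lower in LDP in 4 of 4 rats (log2 difference −0.41 ± 0.15, adjusted p = 0.376). Ddit3 stood at 167, 738, 217 and 189 CPM in CON and at 154, 171, 150 and 178 CPM in LDP. Again all 4 rats were lower in LDP, but apart from CON rat 2 the groups lay close together (−0.71 ± 0.29, adjusted p = 0.404). Xbp1, at 31.6, 53.6, 34.9 and 31.3 CPM in CON and 36.2, 29.4, 31.0 and 12.3 CPM in LDP, had the same 2 libraries at its ends (−0.53 ± 0.28, adjusted p = 0.483).

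The glycoprotein chaperones and isomerases differed less. Pdia3 was lower in 4 of 4 rats (−0.23 ± 0.13), and Canx was lower in 3 of 4 (−0.23 ± 0.15), where the 326 CPM of LDP rat 4 stood against 567 to 619 CPM in the other libraries at 2 weeks. Pdia4 (−0.20 ± 0.21), Calr (−0.10 ± 0.14), Creld2 (−0.003 ± 0.25) and Pdia6 (0.01 ± 0.16) lay close to no difference, with adjusted p between 0.683 and 0.996. Their 95% intervals were widest for Pdia4 (−0.67 to 0.27) and Creld2 (−0.56 to 0.55), so changes of that size could go undetected. Both times were fitted together, so each SE and interval rests on a spread shared by 2 and 8 weeks. For Creld2 the SD of the 4 log2 differences was 0.12 at 2 weeks and 0.83 at 8 weeks.

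None of the 10 genes was called at adjusted p under 0.05, where 16 of 8355 genes (0.192%) were, 13 as higher (0.156%) and 3 as lower (0.0359%). At unadjusted p under 0.05 there were 3 of 10 members, against 961 genes (11.5%). edgeR and DESeq2 on recovered counts called none of the 10 either, with 2 and 3 at unadjusted p under 0.05. The level was lower in LDP in all 4 rats for 4 members (Hspa5, Hsp90b1, Ddit3 and Pdia3), against 13.6% of genes, and higher in all 4 for none, against 9.32% of genes. The groups did not overlap for Hspa5 alone, against 7.25% of genes. The members' median log2 difference was −0.23, and that of all genes −0.08. Without rats 2, 4 and 5 the difference of Hspa5 was −0.15 (adjusted p = 0.719), that of Hsp90b1 −0.14 and that of Ddit3 −0.32 (adjusted p = 0.424). Pdia3 was then at −0.08, Canx at −0.03 and Xbp1 at 0.01.

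**Figure D1:**
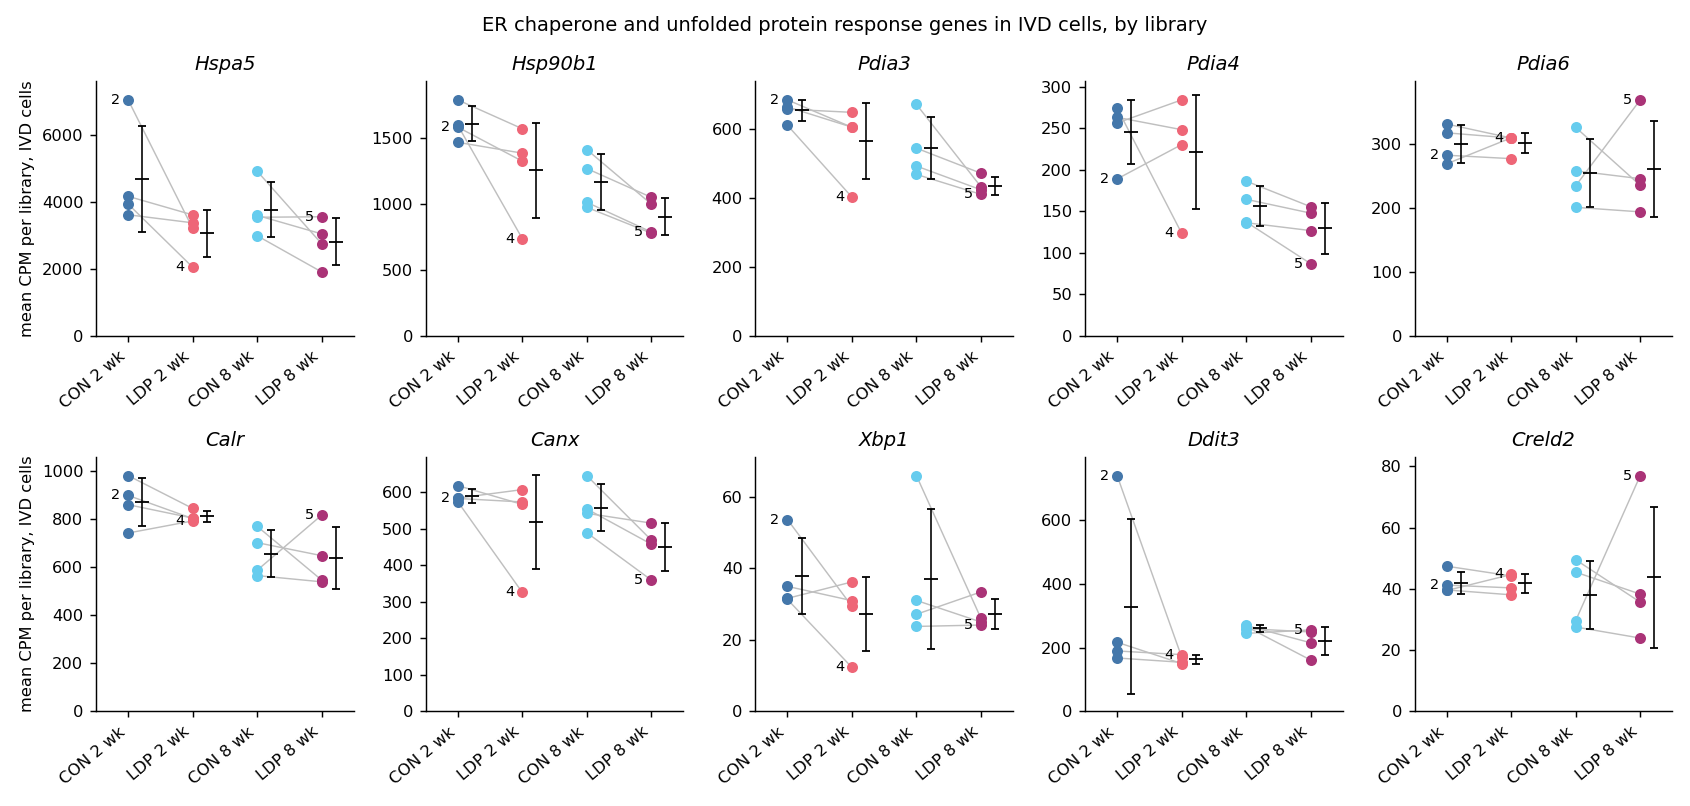
Mean CPM of the 10 genes in IVD cells of each library (y axis, linear from 0), by group (x axis); lines join the pair of libraries from 1 rat, and bars give the mean and SD of 4 libraries. The numbers 2, 4 and 5 mark CON rat 2, LDP rat 4 and LDP rat 5, of which CON rat 2 is the highest for Hspa5 (7049 CPM) and Ddit3 (738 CPM).

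At 8 weeks 8 of the 10 log2 differences were below 0, and again none passed the threshold. Hspa5 stood at 3542, 2991, 4922 and 3600 CPM in CON rats 5 to 8 and at 3557, 1909, 2752 and 3045 CPM in LDP. It was lower in LDP in 3 of 4 rats, the exception being rat 5, whose 2 libraries differed by little (−0.43 ± 0.19, adjusted p = 0.246). Hsp90b1 was lower in 4 of 4 rats, with 1010, 972, 1410 and 1266 CPM in CON and 786, 777, 997 and 1048 CPM in LDP (−0.36 ± 0.15, adjusted p = 0.235). The groups overlapped, while the difference within a rat was of like size in all 4 (SD of the 4 log2 differences 0.0974). At 2 weeks this SD was 0.474, and the SE of either time rests on the spread of both.

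Pdia3, the partner of the lectin chaperones, was lower in LDP in 4 of 4 rats (468, 492, 671 and 544 CPM in CON, 410, 424, 432 and 472 CPM in LDP). Its difference was −0.31 ± 0.13 (adjusted p = 0.222). Canx (−0.31 ± 0.15, adjusted p = 0.267) and Pdia4 (−0.29 ± 0.21, adjusted p = 0.431) were also lower in 4 of 4 rats. Ddit3, at 244 to 269 CPM in CON and 161 to 255 CPM in LDP, was lower in 3 of 4 (−0.26 ± 0.29, adjusted p = 0.612). Calr, Pdia6 and Creld2 had 3 rats lower and 1 higher, and the rat that was higher was rat 5 for each of them. Xbp1 was lower in 2 rats and higher in 2 (−0.32 ± 0.28), with a log2 difference of −1.31 in rat 7 and −0.30 to 0.29 in the others, and without rat 7 it was at 0.0034. In LDP rat 5 Creld2 was at 77.0 CPM, against 24.0 to 38.3 CPM in the other LDP libraries, and Pdia6 was at 369 CPM, against 194 to 246 CPM.

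None of the 10 genes was called at 8 weeks, where 33 of 8355 genes (0.395%) were. At unadjusted p under 0.05 there were 3 members, against 19.9% of genes. edgeR and DESeq2 called none of the 10, and none at unadjusted p under 0.05. For 4 members all rats were lower in LDP, against 25.8% of genes, and for none were all higher, against 8.98% of genes. No member had groups that did not overlap (14.1% of genes). The members' median was −0.30, against −0.14 for all genes. A fit without rats 2, 4 and 5 was added after the data were seen. It leaves out rat 5, the only rat in which Hspa5 was not lower at 8 weeks. In this fit 427 of 8050 genes were called, and Hspa5 (−0.58, adjusted p = 0.0293) and Hsp90b1 (−0.36, adjusted p = 0.0417) passed. Rats 2 and 4 are 2-week rats, which do not enter the 8-week difference but share its estimate of spread. Without rat 5 alone 4 genes were called at 8 weeks, and no member. Without rat 4 alone 538 genes were called, Hsp90b1 among them. In another fit, without the rat block and with only CON rat 2, LDP rat 4 and LDP rat 5 left out, 127 genes were called and neither passed (Hspa5 −0.55, adjusted p = 0.0893). The fit without the block and that without rats 2, 4 and 5 differ in the block and in the libraries.

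The LDP effect at 8 weeks was also tested against that at 2 weeks. No gene passed by limma or edgeR (DESeq2 called 6), and 99 genes (1.18%) but no member had an unadjusted p under 0.05. For Hspa5 the difference of the effects was 0.16 ± 0.27, with a 95% interval from −0.43 to 0.76, and for Ddit3 it was 0.45 ± 0.41. Over all cells of a library, in place of IVD cells, Hspa5 stood at −0.60 ± 0.20 at 2 weeks (adjusted p = 0.484) and −0.27 ± 0.20 at 8 weeks, where 2 rats were lower and 2 higher. Ddit3 stood at −0.29 ± 0.32 at 2 weeks (adjusted p = 0.765), with 2 rats lower and 2 higher in place of 4 lower, and at −0.17 ± 0.32 at 8 weeks, lower in 4 of 4 rats. None of the 10 genes was called at either time, where 0 and 1 (0.0111%) of 9001 genes were. At unadjusted p under 0.05 there were 829 genes (9.21%) at 2 weeks, Hspa5 and Hsp90b1 among them, and 808 genes (8.98%) but no member at 8 weeks.

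**Figure D2:**
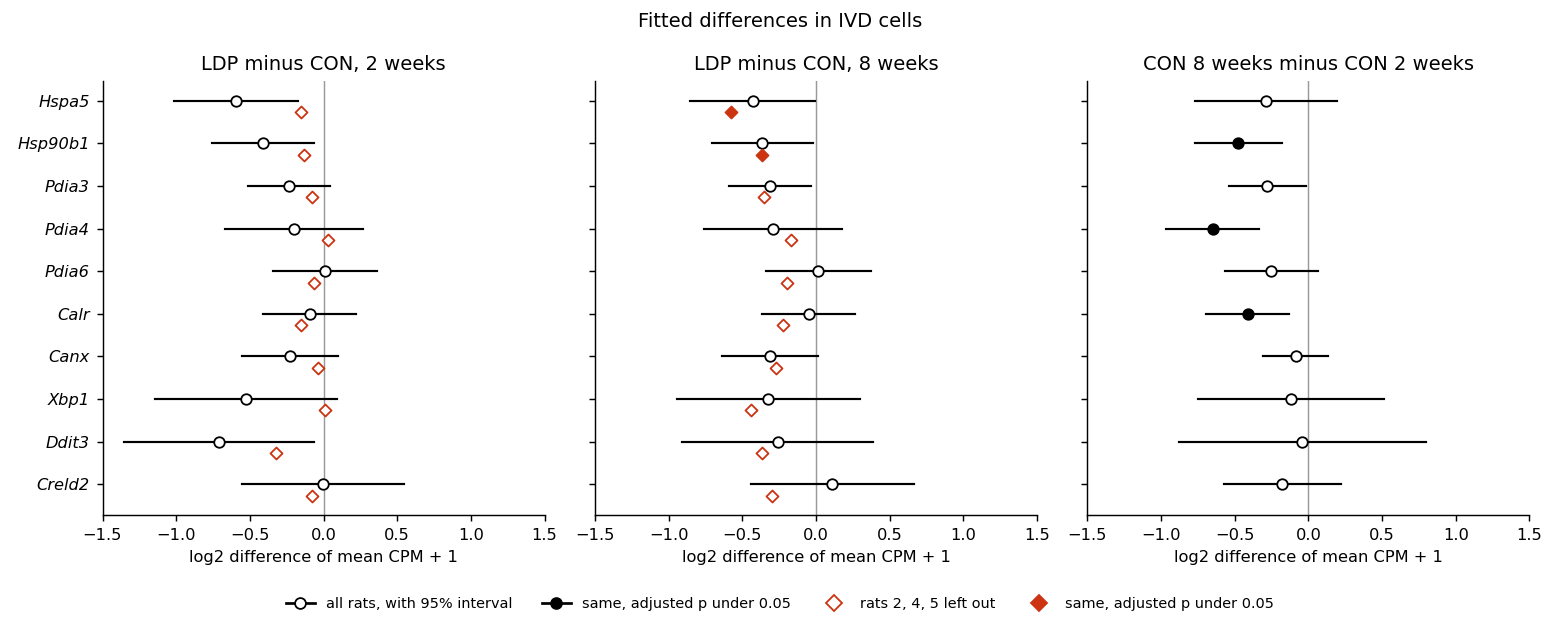
Fitted log2 differences of mean CPM + 1 in IVD cells (x axis) for the 10 genes (y axis): LDP minus CON at 2 and 8 weeks and CON at 8 weeks minus CON at 2 weeks. Circles with 95% intervals use all rats, diamonds leave out rats 2, 4 and 5, and filled marks have adjusted p under 0.05: none of the circles in the first 2 panels, but Hsp90b1, Pdia4 and Calr in the last.

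At 2 weeks the authors divided IVD cells into cells of the outer and of the inner annulus fibrosus (OAF and IAF) and of the nucleus pulposus (NP), in CON and LDP apart. A difference in how the subclusters were drawn therefore cannot be told apart from an effect of puncture in what follows. NP cells were higher than IAF cells in every library for 18% of genes in CON and 50.6% in LDP. In NP cells Hspa5 and Ddit3 had lower levels after puncture in every rat, in IAF cells in 3 of 4 rats, and in OAF cells Ddit3 had a higher level after puncture in every rat. In NP cells Ddit3 stood at 137, 838, 166 and 161 CPM in CON rats 1 to 4 and at 123, 130, 136 and 132 CPM in LDP. In OAF cells it stood at 267, 245, 294 and 312 CPM in CON and at 351, 327, 330 and 367 CPM in LDP. The groups did not overlap in either subcluster, and they lay in opposite order. CON rat 2 was the highest CON library in NP cells and the lowest in OAF cells.

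The log2 difference of Ddit3 was −0.85 ± 0.42 in NP cells (adjusted p = 0.556), −0.86 ± 0.34 in IAF cells (adjusted p = 0.378) and 0.30 ± 0.13 in OAF cells (adjusted p = 0.421). A test of the OAF effect against the NP effect was added after the data were seen, so its p values are descriptive. It gave 1.15 ± 0.42 (adjusted p = 0.141) for Ddit3. Of 7423 genes 228 (3.07%) were called, 1.52% as higher and 1.55% as lower, and none of the 10 members was. There were 1935 genes (26.1%) with an unadjusted p under 0.05, and Ddit3 was the only member. Without rat 2 the difference of the effects was 0.51 (adjusted p = 0.148). Scaled by summed counts, the Ddit3 difference in OAF cells was 0.18 (adjusted p = 0.696). With both rats 2 and 4 left out, Ddit3 differed by −0.22 in NP cells (adjusted p = 0.144), by −0.41 in IAF cells (adjusted p = 0.242) and by 0.28 in OAF cells (adjusted p = 0.275).

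Equal depth gave the same order. With each cell thinned to 1000 UMIs, 12.3% to 46.6% of NP cells in CON and 10.8% to 12.1% in LDP held a UMI of Ddit3. In OAF cells the shares were 19.4% to 24.2% in CON and 25.0% to 26.8% in LDP. Without thinning they were 54.9% to 93.0% and 52.1% to 59.3% in NP cells and 50.4% to 63.2% and 56.6% to 64.9% in OAF cells. These ranges of CON and LDP overlap in both subclusters. Every NP cell had 1000 UMIs, and 3 of 4222 OAF cells in CON and 39 of 5202 in LDP were left out for having fewer. Of 131 related genes on fixed lists, 4 (3.05%) were called in the same test of OAF against NP effects, against 3.07% of all genes. The OAF effect was above the NP effect for Atf3 (0.95, adjusted p = 0.0134), a stress-induced transcription factor, and for the immediate early genes Dusp1 (0.92, adjusted p = 0.0421) and Nr4a1 (2.16, adjusted p = 0.00839), and below it for P4ha2 (−0.74, adjusted p = 0.0301). Without rat 2, where 47 genes were called in place of 228, Atf3 (0.98, adjusted p = 0.0482) and Nr4a1 (2.02, adjusted p = 0.0357) passed, and Dusp1 (0.89, adjusted p = 0.124) and P4ha2 (−0.76, adjusted p = 0.0946) did not, nor did these last 2 with any other rat left out. Without rat 3, where 22 genes were called, none of the 4 passed. In CON rat 2 Atf3 and Nr4a1 were high in NP cells along with Ddit3 (Atf3 at 1358 against 730 to 935 CPM in the other CON libraries, Nr4a1 at 180 against 19.3 to 54.7 CPM). Their part in the Ddit3 difference was not tested.

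Hspa5 in NP cells stood at 3634, 7711, 3931 and 3750 CPM in CON and at 3041, 2874, 3392 and 1935 CPM in LDP. It was lower in 4 of 4 rats, with no overlap (−0.71 ± 0.21, adjusted p = 0.416). In OAF cells the CON libraries held 3317, 2710, 3824 and 3929 CPM and the LDP libraries 3357, 3753, 3695 and 2364 CPM. Here the groups overlapped throughout, and CON rat 2 was the lowest of its group (−0.07 ± 0.18, adjusted p = 0.905). The test of one effect against the other gave 0.64 ± 0.28 (adjusted p = 0.204), and 0.22 without rat 2 (adjusted p = 0.425). Without rats 2 and 4 the Hspa5 difference in NP cells was −0.23 (adjusted p = 0.202).

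None of the other members was higher in all 4 rats in OAF cells. Hspa5 was lower in 2 of 4 rats, and Hsp90b1 (−0.29), Canx (−0.26) and Pdia4 (−0.27) in 3 of 4. Calr, Creld2, Pdia3, Pdia6 and Xbp1 were lower in OAF cells of punctured discs in 4 of 4 rats, against 14.6% of genes, while Ddit3 was higher in 4 of 4, against 7.15% of genes. Xbp1 differed by −0.51 ± 0.19 (adjusted p = 0.370) and Pdia3 by −0.31 ± 0.12 (adjusted p = 0.385). In NP cells Hspa5, Ddit3, Hsp90b1, Pdia3 and Canx were lower in 4 of 4 rats, against 9.95% of genes. No overlap of the groups was seen for Hspa5 and Ddit3 in NP cells, against 6.91% of genes, and for Ddit3 in OAF cells, against 7.84%. In IAF cells no member was lower in all 4 rats, against 19% of genes, or higher in all 4, against 7.59%. Hspa5 was lower there in 3 of 4 rats (−0.61 ± 0.22, adjusted p = 0.352), and without rats 2 and 4 the difference was −0.07 (adjusted p = 0.903).

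None of the 10 genes was called in NP, IAF or OAF cells by limma, edgeR or DESeq2. Over all genes limma called 0 of 7791 (0%) in NP cells, 0 of 7730 (0%) in IAF cells and 125 of 8802 (1.42%) in OAF cells, 1.25% as higher and 0.17% as lower. Unadjusted p was under 0.05 for 2 members and 749 genes (9.61%) in NP cells, for 2 members and 987 genes (12.8%) in IAF cells, and for 3 members and 1002 genes (11.4%) in OAF cells.

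**Figure D3:**
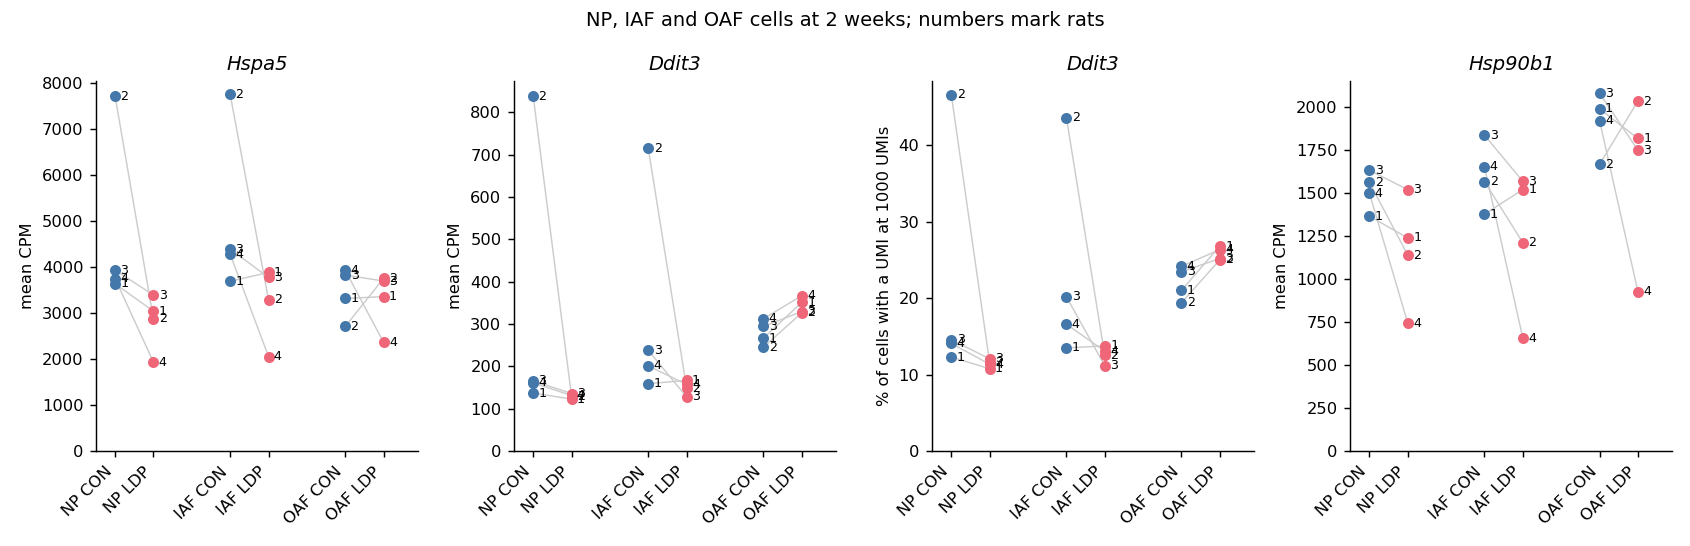
Mean CPM of Hspa5, Ddit3 and Hsp90b1 and the percent of cells with a Ddit3 UMI at 1000 UMIs per cell (y axes, from 0) in NP, IAF and OAF cells of CON and LDP libraries at 2 weeks (x axis). Each numbered point is the library of 1 rat and lines join the libraries of a rat; CON rat 2 is at 838 CPM of Ddit3 in NP cells and 245 CPM in OAF cells.

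Between subclusters, the members did not share 1 order. The subclusters were made from the expression of all genes, and Pdia4 was among the genes by which the study identified NP cells, so these levels are descriptions. Hsp90b1, Pdia4, Calr and Creld2 were lower in NP than in OAF cells of the same library in 8 of 8 libraries, against 38% of genes, with mean log2 differences of −0.41, −0.33, −0.19 and −0.39. Canx was slightly higher in NP cells in 8 of 8 (0.11, against 26.8% of genes). Ddit3 was lower in NP cells in all libraries but CON rat 2, with a mean of −0.82. Hspa5 differed by 0.08 on average, being higher in NP cells in 3 of 8 libraries, and by −0.12 without CON rat 2, whose own difference was 1.51.

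NP and IAF cells were closer to each other. Hspa5 (−0.15) and Creld2 (−0.10) were lower in NP than in IAF cells in 8 of 8 libraries, against 1.97% of genes. Against IAF cells, OAF cells held more Hsp90b1 (0.33), Creld2 (0.29) and Pdia4 (0.24) in 8 of 8 libraries, against 38.7% of genes, and more Ddit3 in 7 of 8 (0.61, and 0.92 without CON rat 2). In levels, Hsp90b1 ran from 745 to 1635 CPM in NP, 658 to 1838 CPM in IAF and 928 to 2082 CPM in OAF cells, the low end being LDP rat 4 in each. Pdia4 ran from 126 to 266, 117 to 304 and 136 to 332 CPM. These ranges overlap widely between libraries, and the order holds within a library.

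All 10 genes were found in every class, and no class was free of them that could serve as a background level for free RNA. Compared with IVD cells of the same library, the other classes held less of the disulfide isomerases and more Ddit3. The comparison used the libraries with at least 20 cells of a class: 12 for endothelial cells (the 8-week CON group has none so named), 15 for myeloid, 11 for lymphoid and 16 for the cells that the authors left unnamed. Median depth per cell was 1685 to 5274 UMIs in endothelial, 2479 to 8265 in myeloid and 1319 to 5296 in lymphoid cells.

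Pdia4 was lower than in IVD cells in every library and class: by a mean log2 difference of −1.02 in endothelial, −1.45 in myeloid, −2.89 in lymphoid and −0.94 in unnamed cells. Its level had a median of 176 CPM over libraries in IVD cells (range 87.0 to 284), 102 CPM in endothelial cells (34.9 to 142), 72.5 CPM in myeloid cells (25.3 to 145) and 18.1 CPM in lymphoid cells (6.27 to 94.6). At 1000 UMIs per cell the median share of cells with a UMI of Pdia4 was 15.5% in IVD and 1.84% in lymphoid cells (61% and 4.71% without thinning). Pdia6 was likewise lower in every library, by −1.29, −0.94, −1.71 and −0.93. The share of all genes lower in every library was 24.2% for endothelial, 18.1% for myeloid, 21.8% for lymphoid and 10.1% for unnamed cells.

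Ddit3 went the other way. It was higher than in IVD cells in 11 of 12 endothelial libraries (mean 1.65, the exception being CON rat 2 at −0.35), 13 of 15 myeloid (0.76), 11 of 11 lymphoid (1.73, against 27.8% of genes higher in all) and 15 of 16 unnamed (1.11). Endothelial cells held 578 to 833 CPM in the 12 libraries, a narrower range than the 150 to 738 CPM of IVD cells. CON rat 2 was at 578 CPM in endothelial cells, the lowest there, beside the highest level in IVD cells. At 1000 UMIs the share of cells with a UMI was 39.7% to 50.5% in endothelial cells and 12.5% to 42.4% in IVD cells (56.2% to 81.8% and 43.7% to 84.5% without thinning).

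Each class also had its own order of the other members. Lymphoid cells held little Hspa5, with a median of 967 CPM (503 to 2870) against 3549 CPM in IVD cells, and were lower in 11 of 11 libraries (−1.52). Endothelial cells held Hspa5 at the level of IVD cells or above (0.13, higher in 10 of 12, and 0.21 without CON rat 2) but less Xbp1 (−1.07) and Creld2 (−0.83), both lower in 12 of 12. Myeloid cells held more Calr in 14 of 15 libraries (0.49) and less Pdia3 in 15 of 15 (−0.53). Xbp1 in lymphoid cells, with a median of 35.0 CPM, had a mean difference of 0.06 from IVD cells, which was 0.35 without CON rat 1 and −0.06 without LDP rat 2. Canx varied least between classes, with median levels of 561 CPM in IVD, 556 CPM in endothelial, 554 CPM in myeloid and 554 CPM in lymphoid cells. The median over the 10 members was −0.36 in endothelial cells, where that of all genes was 0.05, −0.46 against −0.21 in myeloid cells and −0.16 against 0.24 in lymphoid cells. These gaps varied by group. In endothelial cells at 2 weeks the medians were −0.46 against 0.18 in CON and −0.47 against 0.15 in LDP. In LDP at 8 weeks they were −0.14 against −0.09 in endothelial, −0.33 against −0.28 in myeloid and −0.24 against 0.56 in lymphoid cells.

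**Figure D4:**
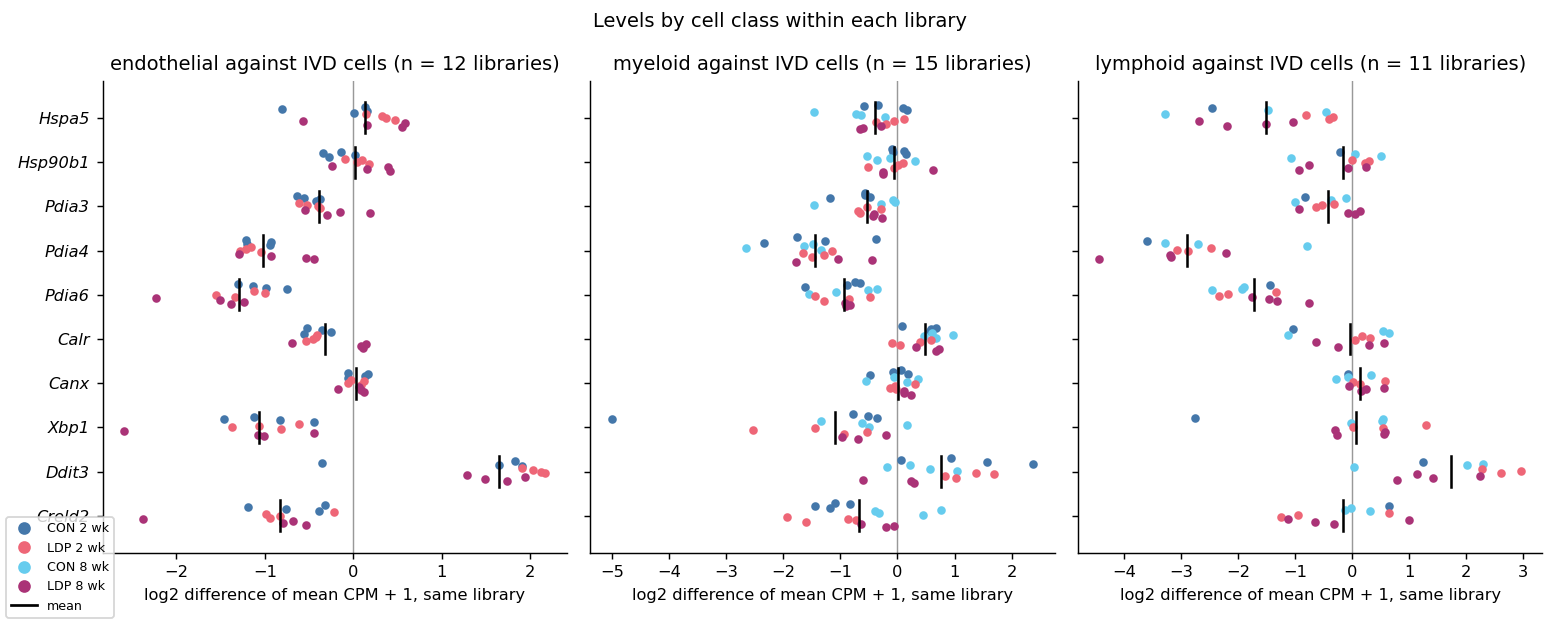
Log2 difference of mean CPM + 1 between a class and IVD cells of the same library (x axis) for each gene (y axis), in endothelial (n = 12), myeloid (n = 15) and lymphoid cells (n = 11); each point is a library, coloured by group, and the bar is the mean. Pdia4 and Pdia6 lie left of 0 in every library and Ddit3 lies right of 0 in all but 1 endothelial and 2 myeloid libraries.

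The control discs of the 2 time points were also compared, which sets rats 5 to 8 against rats 1 to 4. Hsp90b1, Pdia4 and Calr were lower at 8 weeks. Hsp90b1 stood at 1605 ± 133 CPM (SD, n = 4) at 2 weeks and 1165 ± 209 CPM at 8 weeks (−0.48 ± 0.13, adjusted p = 0.0282). Pdia4 stood at 257, 189, 263 and 274 CPM at 2 weeks and at 137, 136, 165 and 187 CPM at 8 weeks. CON rat 2 at 189 CPM lay just above CON rat 8 at 187 CPM (−0.65 ± 0.14, adjusted p = 0.0110). The groups of Hsp90b1 and of Pdia4 did not overlap, against 26.2% of genes, and those of Calr did. Calr fell from 872 ± 99.5 CPM to 657 ± 97.1 CPM (−0.41 ± 0.13, adjusted p = 0.0415).

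Thus 3 of the 10 members were called, all as lower, where 23% of 8022 genes were, 13.6% as lower and 9.4% as higher. edgeR called only Pdia4, and DESeq2 called Hsp90b1 and Pdia4. With each library left out in turn, 1 to 4 members were called, and Pdia4 was among them each time. Hspa5 (−0.29 ± 0.22, adjusted p = 0.355), Pdia6 (−0.25 ± 0.14) and Pdia3 (−0.28 ± 0.12, adjusted p = 0.112) did not pass. The level of Ddit3 depended on 1 library: with all libraries the difference was −0.04 ± 0.38, and without CON rat 2 it was 0.45 and called (adjusted p = 0.0134). Age of the rat, time since surgery and the set of animals differ together between these groups and cannot be told apart. The IVD class was also drawn apart in each group, and the subclusters used here cover 2 weeks only. A difference in how the class was drawn, or in its mix of NP, IAF and OAF cells, therefore cannot be told apart either.

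Around these 10 genes, lists of related genes were read in the same fits. After puncture no listed gene was called in IVD cells at 2 or 8 weeks. Among the other ER chaperones and co-chaperones (11 tested) Dnajb9, a co-chaperone of BiP, had a log2 difference of −0.38 (adjusted p = 0.229) at 2 weeks. Hyou1 had −0.30 at 2 weeks and −0.42 at 8 weeks (adjusted p = 0.221). Manf lay above 0, at 0.07 (adjusted p = 0.899) and 0.22 (adjusted p = 0.602). Of the sensors and transcription factors (10 tested), Eif2ak3, which encodes PERK, had −0.61 (adjusted p = 0.383) and −0.75 (adjusted p = 0.145), and Atf4 had 0.03 and −0.03. Ero1a, the oxidase that recharges disulfide isomerases, had 0.45 (adjusted p = 0.253) and 0.12. Herpud1, of the quality control list, had −0.10 (adjusted p = 0.898) and 0.23 (adjusted p = 0.684).

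Another 20 listed genes, named by level or by p at 2 weeks, had adjusted p of 0.281 to 0.849 at 2 weeks and 0.107 to 0.985 at 8 weeks, and their log2 differences are given in that order of time. Among folding genes, Dnajc10, a reductase with a J domain, had −0.12 and −0.18, the proline isomerase Ppib 0.15 and 0.04, Erp29 0.18 and 0.06, and Tmx3 −0.17 and −0.54. In the quality control list, Edem1, which directs glycoproteins to degradation, had −0.31 and −0.29, while Derl2 (0.39 and 0.26), Ube2j1 (0.26 and 0.05) and Selenos (0.17 and 0.03) lay above 0. Ern1, which encodes IRE1, had −0.32 and −0.22, Nfe2l2 −0.38 and −0.42, and Creb3l1 −0.06 and 0.06.

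Outside the ER lumen, Sec62 had 0.14 and −0.0037, Dnajb4 −0.35 and −0.31, and Hspe1 0.33 and 0.51. The immediate early genes Btg2 (−0.60 and −0.21) and Zfp36 (−0.99 and −0.24) were further from 0 at 2 weeks. Of the collagen and matrix lists, the prolyl hydroxylase subunit P4ha1 had 0.40 and 0.07, Fn1 −0.23 and −0.34, Chad −0.26 and −0.23, and Col3a1 −0.65 and −1.14.

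Outside the chaperones, P4ha2, a subunit of collagen prolyl hydroxylase, had 479 to 622 CPM in CON and 699 to 921 CPM in LDP at 2 weeks, and 490 to 612 CPM and 685 to 964 CPM at 8 weeks. The groups did not overlap at either time, against 7.25% of genes at 2 weeks and 14.1% at 8 weeks. The adjusted p was 0.182 (log2 difference 0.50) and 0.079 (0.58). The PERK targets Chac1 (−0.47), Atf5 (−0.52) and Atf3 (−0.57) had adjusted p of 0.508 to 0.545 at 2 weeks. The immediate early genes, which respond to handling of cells, had the median furthest from 0 at 2 weeks (−0.69 over 10 genes, of which 3 had unadjusted p under 0.05), and CON rat 2 was also their highest library. Without rat 2 this median was −0.32. With all rats Egr1 had −1.43 (adjusted p = 0.429) and Nr4a1 −1.05 (adjusted p = 0.365) at 2 weeks. The ranges of list medians in IVD cells were −0.69 to 0.19 at 2 weeks and −0.30 to 0.10 at 8 weeks.

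In CON discs at 8 weeks against 2 weeks, 38 of 132 listed genes were called (28.8%), and the counts below stand beside 13.6% of all genes called lower and 9.4% called higher. Of 16 procollagen folding and export genes, 10 were called lower and none higher, among them Serpinh1, the collagen chaperone (−0.70, adjusted p = 0.00341), Plod2, a lysyl hydroxylase (−0.97, adjusted p = 0.00341), P3h1 (−0.998) and Kdelr3 (−0.73). The list's median was −0.65, and that of all genes −0.01. Of 14 abundant matrix genes 7 were called lower and 3 others lay above 0; those called include Col1a1 (−2.26), Col2a1 (−2.04) and Acan (−0.70). Folding enzymes had 4 of 13 lower, with P4hb at −0.44 and Qsox1 at −0.86. Quality control genes had 3 of 15 lower, with Os9 at −0.91. The sensors had 3 of 10 lower (Eif2ak3, Mbtps1 and Creb3). The co-chaperones with 2 of 11 (Dnajc1 and Sil1), the PERK targets with 1 of 13 (Atf5) and the quality control genes lay near the share of all genes. In the other direction, heat shock proteins outside the ER had 5 of 15 higher (Dnajb1 0.75, Hspa1a 0.87, Hsp90aa1 0.66, Hspb1 0.53 and Hspd1 0.51), and the translocon list had 3 of 16 higher (Sec61g 0.45, Srp14 0.38 and Srp9 0.38). None of 10 immediate early genes was called.

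Library by library, 3 patterns of high or low members could be seen in IVD cells. CON rat 2 was high in Hspa5, Xbp1 and Ddit3 but not in Hsp90b1 (1579 CPM) or Pdia4 (189 CPM, the lowest of its group), and in its NP cells the PERK targets Trib3 (322 against 112 to 145 CPM in the other CON libraries) and Chac1 (284 against 68.6 to 95.4 CPM) were high. In its OAF cells Trib3 (10.1 CPM) and Chac1 (26.4 CPM) were near the other CON libraries. LDP rat 5 was high in Creld2 and Pdia6 and also in Sdf2l1 (235 against 14.7 to 24.5 CPM in the other LDP libraries at 8 weeks), Manf (769 against 304 to 398 CPM) and Herpud1 (587 against 188 to 224 CPM), which are induced by ER stress, while Pdia4 was at its lowest there (87.0 CPM). LDP rat 4 was low in Hspa5, Hsp90b1, Pdia3, Pdia4, Canx and Xbp1, with a median deviation over the 10 members of −0.67 log2 units, while Pdia6, Calr, Ddit3 and Creld2 lay near the other LDP libraries. CON rat 7 had the highest Xbp1 (65.9 CPM) with Sdf2l1 at 85.6 CPM.

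**Figure D5:**
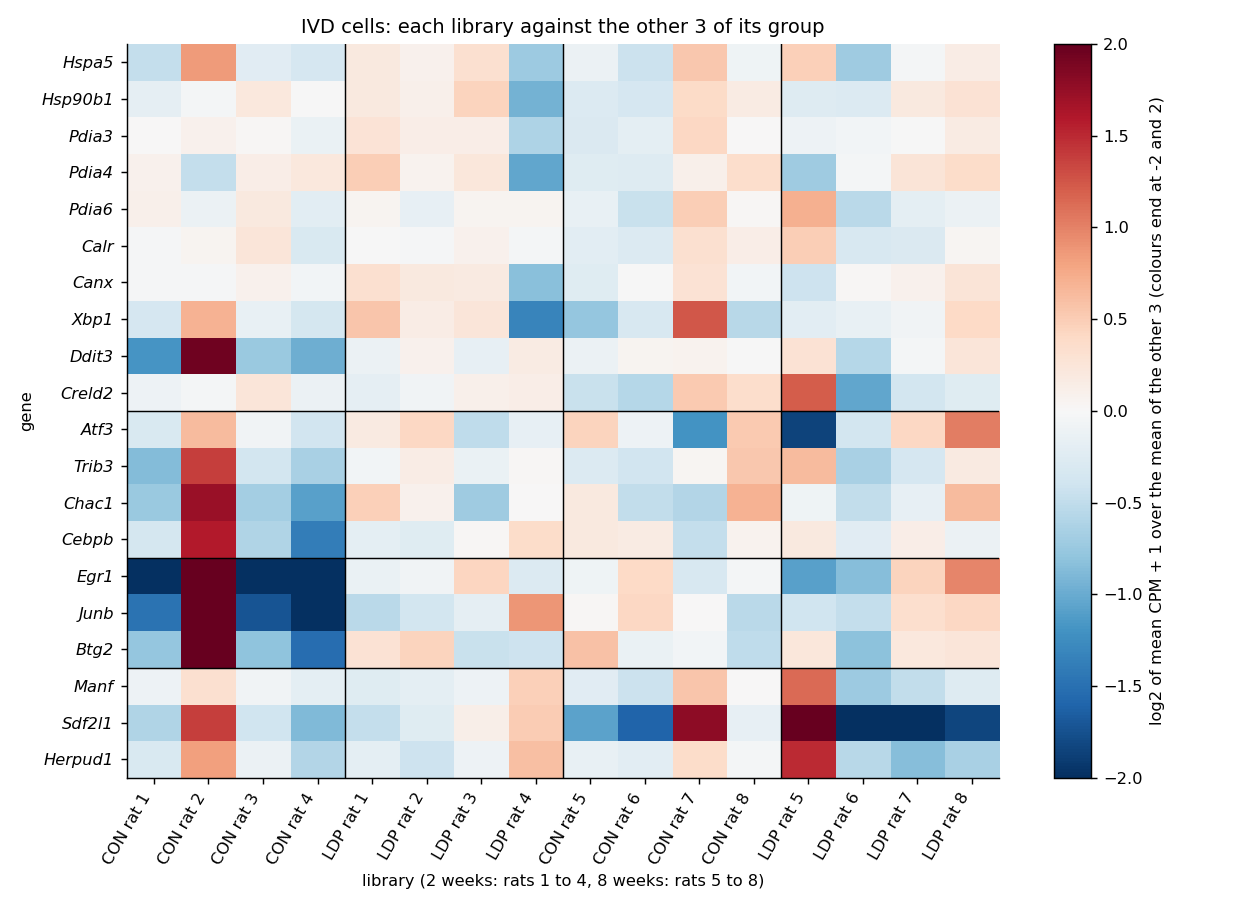
Deviation of each library (x axis) from the mean of the other 3 libraries of its group in IVD cells, as log2 of mean CPM + 1 (colour, ending at −2 and 2), for the 10 genes, then PERK targets, immediate early genes and genes induced by ER stress (y axis). Among the 10 genes, those that stand out are not the same in CON rat 2, LDP rat 4 and LDP rat 5, though Hspa5 and Xbp1 do so in both CON rat 2 and LDP rat 4.

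With group means removed, the variation of Hspa5 over the 16 libraries of IVD cells was most like that of Sox9, the transcription factor of cartilage cells (Pearson r = 0.96; 0.93 over the 13 libraries without the 3 that stand apart). The next genes were Rcsd1 (0.91 and 0.91), Klf13 (0.89 and 0.72), Fam129b (0.89 and 0.78) and Kctd3 (0.89 and 0.70), followed by Ctgf, Lrrfip1, Zfp608, Nab2 and Asns at 0.88. Sox9 ran from 589 to 919 CPM in CON and 407 to 542 CPM in LDP at 2 weeks, with CON rat 2 highest and LDP rat 4 lowest, as for Hspa5. Among members, r with Hspa5 was 0.74 for Xbp1, 0.66 for Ddit3, 0.64 for Pdia3, 0.60 for Hsp90b1, 0.59 for Calr, 0.53 for Creld2, 0.50 for Pdia6, 0.39 for Canx and 0.12 for Pdia4. Over the 13 libraries the order changed: Hsp90b1 (0.90), Creld2 (0.87) and Pdia6 (0.87) came first, Pdia3 (0.71), Calr (0.69), Canx (0.64) and Pdia4 (0.58) were also higher, and Xbp1 (0.68) and Ddit3 (0.64) were lower. Over the 16 libraries the median of the 9 members was 0.59, and that over all 8354 other genes was 0.04. The closest pairs were Pdia6 with Creld2 (0.93), Pdia3 with Xbp1 (0.93), Pdia3 with Canx (0.90) and Pdia6 with Calr (0.90), and Pdia4 ran against Ddit3 (−0.40). These values are descriptions over libraries that share rats and the same scaling to CPM.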

How the data were processed

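Reads of the 10x Genomics 3′ libraries were processed by the authors in Partek Flow, and the labels name genome build rn6; the aligner and the handling of doublets and free RNA are not given in the sources used here. The authors set limits per cell on the mitochondrial share, genes and UMIs, clustered each of the 4 groups apart by K-means and named the clusters by markers. The deposited gene values are log2(CPM + 1) per cell. The deposited total of each cell is an expected count, and the authors also gave the percent of mitochondrial counts per cell. Whole reads came back from log2 value and total within 0.02 for 99.4% of values above 0.

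The mean CPM per library was taken over the cells of a class, with 1 added before log2, for genes with a mean of at least 5 CPM in at least 4 of the libraries compared. These values per library were tested with limma 3.58.1 (trend, R 4.3.3) with a block for rat and Benjamini-Hochberg adjustment over all genes. In IVD cells and in all cells the 2 times were fitted together, so both rest on 1 spread per gene from the libraries of both times. edgeR 4.0.16 (TMM) and DESeq2 1.42.0 on recovered counts summed per library were alternatives, as were a pseudocount of 10, no filter, CPM of summed counts, no rat block, and each replicate left out. CON at 8 weeks against 2 weeks has no pairs. The 2 libraries with the same number in their titles were taken to come from 1 rat, which is the pairing. The titles do not name the animal. The correlations of their deviations from group means were −0.194, 0.218, 0.210 and −0.194 for rats 1 to 4 and 0.165, 0.512, 0.0726 and 0.403 for rats 5 to 8. On simulated data for LDP against CON at 2 weeks in IVD cells (8097 genes) limma recovered 89% of 100 2-fold and 100% of 100 4-fold changes, with 10 false calls. The simulation held no differences between rats or times and no library that stood apart. It changed only genes above a set level, so these shares do not give the power in the data. Subcluster numbers were named NP, IAF and OAF in LDP by matching a number of cells that the study gives for each and that is not reported here. Shares were taken after thinning each cell to 1000 UMIs; classes with under 20 cells in a library were left out there. Differences between classes and between subclusters are descriptions with no test. The test of OAF against NP effects was added after the data were seen. Beside the 10 genes, the text names from each list the 2 genes with the highest level and up to 3 with the smallest p at 2 weeks in IVD cells, and the 10 genes most like Hspa5; genes named for being called or for standing out in 1 library were chosen after their values were seen. The 10 genes and the lists were chosen with earlier results of these data known.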

Additional observations from a re-analysis of the deposited data

Results flagged for a closer look

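Over the 10 genes, 100 groups of 4 libraries were searched for a library far from the other 3. The groups are not independent, as IVD cells include the NP, IAF and OAF cells and the genes vary together. The share found can therefore not be set against chance. In all, 10 groups were flagged (10%). Of these, 7 were CON rat 2 as the highest: Hspa5 at 7049 CPM in IVD cells (others 3616 to 4167) and 7711 CPM in NP cells, Xbp1 at 53.6 CPM in IVD cells (others 31.3 to 34.9) and 55.7 CPM in NP cells, and Ddit3 at 737.9 CPM in IVD cells, 837.9 CPM in NP cells and 714.8 CPM in IAF cells (others 159 to 238). In 2 groups LDP rat 4 was the lowest, for Canx at 326.2 CPM in IVD cells (others 567 to 608) and 344.7 CPM in NP cells. The last was Pdia6 in IVD cells of LDP at 2 weeks, where LDP rat 2 at 277.2 CPM lay below 3 libraries at 309 to 310 CPM.

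Between subclusters, the LDP effect on Ddit3 at 2 weeks was in opposite directions in NP cells and in OAF cells in every rat, with a difference of 1.15 on the log2 scale that did not pass adjustment in limma (adjusted p = 0.141). The test of this difference was added after the data were seen. It passed for Atf3 (0.947, adjusted p = 0.0134), Dusp1 (0.916, adjusted p = 0.0421), Nr4a1 (2.16, adjusted p = 0.00839) and P4ha2 (−0.737, adjusted p = 0.0301). CON rat 2, which is high in Ddit3, Atf3 and Nr4a1 in NP cells, is 1 of the 4 pairs behind each value. Without rat 2 the differences were 0.51 for Ddit3, 0.98 for Atf3 (adjusted p = 0.0482), 0.89 for Dusp1 (adjusted p = 0.124), 2.02 for Nr4a1 (adjusted p = 0.0357) and −0.76 for P4ha2 (adjusted p = 0.0946).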

How the results depend on the processing

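For single genes of the 10, 526 values of 38 results were recomputed under the alternatives. Of these, 481 kept direction and side of the threshold, 14 no longer passed it, 4 newly passed it, and 27 turned direction. With the main settings only Hsp90b1, Pdia4 and Calr between CON time points were called. All 14 losses therefore fell on these 3 results, and most other values kept their side by staying uncalled. The block for rat is the pairing. Without it, 0 genes were called at 2 weeks in IVD cells (16 with it), 1 for the difference between times, 3 at 8 weeks in all cells and 5 in IAF cells at 2 weeks; the split of the 34 genes called at 8 weeks was 9 higher and 25 lower (16 and 17 with it), and 9 genes were called lower in OAF cells (15 with it). Members at unadjusted p under 0.05 went from 3 to 1 at 8 weeks in IVD cells and from 2 to 1 in NP cells. Without block and without the 3 libraries that stand apart, 0 genes were called at 2 weeks and 127 at 8 weeks. Pdia6 was then −0.031 and −0.16 and Creld2 at 8 weeks −0.20. Without rats 2, 4 and 5 (added after the data were seen) 128 genes were called at 2 weeks and 427 at 8 weeks, 2 of them members. Pdia4 (0.032), Xbp1 (0.011) and Pdia6 (−0.068) then turned direction at 2 weeks, and Pdia6 (−0.20) and Creld2 (−0.30) at 8 weeks. Without rats 2 and 4, called genes numbered 217 in OAF cells, 239 in IAF cells and 168 in NP cells.

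DESeq2 called 233 genes at 2 weeks and 499 at 8 weeks in IVD cells, 6 for the difference between times, 141 and 199 in all cells, 159 in NP and 129 in IAF cells. It gave Creld2 0.080 at 2 weeks and Calr 0.075 at 8 weeks. edgeR called 2 genes in all cells at 8 weeks, 1 in NP cells and 1 member between CON time points, with Creld2 at 0.070 and Calr at 0.063. CPM of summed counts gave 1 and 6 genes in all cells at 2 and 8 weeks and 1 in NP cells, with Creld2 at 0.0037 at 2 weeks and Pdia6 at −0.015 at 8 weeks. A pseudocount of 10 gave 2 genes at 2 weeks in IVD cells, 13 in IAF cells and 485 for OAF against NP effects. For members whose share of cells with a UMI was lower in every library, leaving cells unthinned gave 9 in place of 4 in endothelial against IVD cells and 0 in place of 3 in NP against OAF cells.

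With each replicate left out, called genes ranged from 0 to 18 at 2 weeks and 1 to 538 at 8 weeks in IVD cells, 0 to 7 for the difference between times, 0 to 1 in all cells at 8 weeks, 0 to 30 in IAF and 33 to 172 in OAF cells, 22 to 55 for OAF against NP effects and 897 to 2033 between CON time points. Called members ranged from 0 to 1 at 8 weeks (Hsp90b1 without rat 4) and 1 to 4 between CON time points. Values of both signs came for Pdia4 (−0.36 to 0.12), Pdia6 (−0.054 to 0.046) and Creld2 (−0.062 to 0.028) at 2 weeks, Pdia6 (−0.20 to 0.18), Calr (−0.23 to 0.097), Xbp1 (−0.53 to 0.0034) and Creld2 (−0.30 to 0.30) at 8 weeks, Hspa5 in OAF cells (−0.25 to 0.15), and between CON time points Xbp1 (−0.43 to 0.058) and Ddit3 (−0.26 to 0.45, the last called). The cause was not tested for any of these.

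Depth limits Xbp1 and Creld2 most, with a UMI in 1.21% to 7.17% of IVD cells at 1000 UMIs, and 4 rats per group limit all tests between conditions.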

Other observations

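Among heat shock proteins outside the ER, Hspb1, a small heat shock protein, had a log2 difference of 0.33 between LDP and CON in IVD cells at 2 weeks (limma, adjusted p = 0.200) and 0.32 at 8 weeks (adjusted p = 0.101), and Hsp90ab1, the cytosolic counterpart of Hsp90b1, had −0.15 (adjusted p = 0.590) and −0.40 (adjusted p = 0.117). Sec61g, a subunit of the ER translocon, had 0.30 (adjusted p = 0.376) and 0.25 (adjusted p = 0.255). In OAF cells at 2 weeks 1 of 133 listed genes passed the test (0.752%, against 1.42% of all genes), the immediate early gene Ier3 (0.85, adjusted p = 0.0288), which did not pass without rat 2 (0.80, adjusted p = 0.191) or rat 3 (0.73, adjusted p = 0.309), and Slc3a2, an amino acid carrier subunit induced by ATF4, had 0.44 (adjusted p = 0.353).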
